A study of Mus musculus with 2 samples.

Results

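The interferon system of the mouse heart is described here through 39 listed genes out of the 55536 annotated genes of the series: 4 intracellular sensors, 4 interferon receptor chains, 6 signal transducers and 25 induced effectors. The genes were taken by symbol from a fixed list with no threshold on level, but earlier results of these data were known when it was chosen. Each of the 39 symbols matched a single GENCODE M21 gene. The samples were heart tissue of 2 female B6CASTF1/J mice, an F1 cross of the C57BL/6 and CAST strains, aged 25 days. The labels name no treatment, infection or engineered allele, so the animals form 1 group, and the comparison made below is between replicate 1 and replicate 2. Total RNA-seq was done on 300 ng of RNA per animal, with ERCC spike-in RNA added, as 1 library per animal. The library of replicate 1 held 42966704 gene counts and that of replicate 2 held 42720820. Both libraries carried the markers of heart muscle: 6 cardiomyocyte genes, among them Myh6 and Myl2, summed to 31114 TPM in replicate 1 and 32227 TPM in replicate 2. TPM scales reads by transcript length and by library, so levels of different genes can be set side by side in it. The levels rest on a single reference assembly, mm10, and any unequal loss of reads from alleles that differ from it was not tested. In bulk tissue, a lower level from fewer cells of a type cannot be told apart from less RNA per cell.

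Interferons are secreted proteins that warn cells of viral and bacterial infection. Sensors of foreign nucleic acid switch on interferon genes, and interferon then binds receptor chains on the same or neighbouring cells, where JAK kinases activate STAT proteins. A complex that contains Stat2 and Irf9 binds the interferon-stimulated response element in the promoters of effector genes, and interferon gamma acts mainly through another element, the gamma-activated site. The effectors block viral entry, copying and translation, and many cells keep a low constant level of them without infection.

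The DNA letters of these elements were searched in RefSeq promoter windows of build GRCm38.p6, the assembly named mm10 in the deposited files. It gives a single sequence per locus, so differences between the parental alleles of these F1 animals are not shown. Each window runs from 250 bases before to 50 bases after a start site. There were 38 windows for 32 of the 39 genes, and none was given for Ifi27, Iigp1, Mx1, Mx2, Oas2, Usp18 and Zbp1. The core of the response element, GAAANNGAA on either strand, was present in 19 of the 38 windows, which belong to 19 different genes, against 8.56% of all 32851 windows. Stretches around the matches are given for sensors, transducers and effectors, to let the elements be set beside the levels of these genes. Each is written 5′ to 3′ on the strand of its gene, and capitals mark the matched letters, which read as the reverse complement where the element lies on the other strand.
Eif2ak2, chr17:78882528-78882566, minus strand: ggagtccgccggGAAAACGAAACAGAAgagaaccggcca
Ddx58, chr4:40239802-40239834, minus strand: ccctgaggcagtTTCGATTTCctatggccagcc
Irf2, chr8:46739495-46739524, plus strand: tggggaagtGAAAATGAAattgacttttcc
Stat2, chr10:128270265-128270297, plus strand: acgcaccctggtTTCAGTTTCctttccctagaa
Isg15, chr4:156200864-156200908, minus strand: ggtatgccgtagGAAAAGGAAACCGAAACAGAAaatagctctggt
Ifit1, chr19:34640768-34640825, plus strand: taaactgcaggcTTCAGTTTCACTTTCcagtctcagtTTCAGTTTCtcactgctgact
Oas3, chr5:120777708-120777746, minus strand: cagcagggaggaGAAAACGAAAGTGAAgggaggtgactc
Bst2, chr8:71537576-71537614, minus strand: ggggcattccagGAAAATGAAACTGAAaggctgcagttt
Gbp2, chr3:142620593-142620625, plus strand: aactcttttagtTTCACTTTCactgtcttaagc
Rsad2, chr12:26456551-26456583, minus strand: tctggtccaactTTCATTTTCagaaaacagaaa
In Isg15, Oas3, Bst2 and Eif2ak2 the matches overlap in a run, so that neighbouring copies share letters, and Ifit1 has such a pair with a separate copy after it. In Ddx58, Irf2, Stat2, Gbp2 and Rsad2 a single copy was present.

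The sensors with a window (Ddx58, Ifih1 and Eif2ak2) held the response element core in 3 of 3 genes, the effectors in 14 of 19, the signal transducers in 2 of 6 (Irf2 and Stat2) and the receptors in 0 of 4. The effectors with a window but without the letters were Ifi35, Ifit2, Ifitm1, Oasl2 and Xaf1. The windows of Ifitm1 and of the transducer Irf9 lie inside the annotated genes, so the stretch before their outermost annotated ends was not searched. The 19 genes held 33 matches in all: 3 genes (Ifit1, Ifit3 and Isg15) had 3 each, 8 genes had 2 and 8 genes had 1. Of the 33 matches, 26 began upstream of the start site, 22 of them within 150 bases of it. The gamma-activated site core, TTCNNNGAA, was present in 12 of the 38 windows (31.6%), against 8.30% of all windows. It overlapped a response element match in 2 cases. Irf1, a factor known for its response to interferon gamma, held the gamma-activated letters and not the response element letters. The receptor genes Ifnar1 and Ifnar2 also held the gamma-activated letters. A match is a description of letters in these windows and not a measured binding site, and the element was first described from genes of this kind, so its presence here is not an independent finding.

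**Figure D1:**
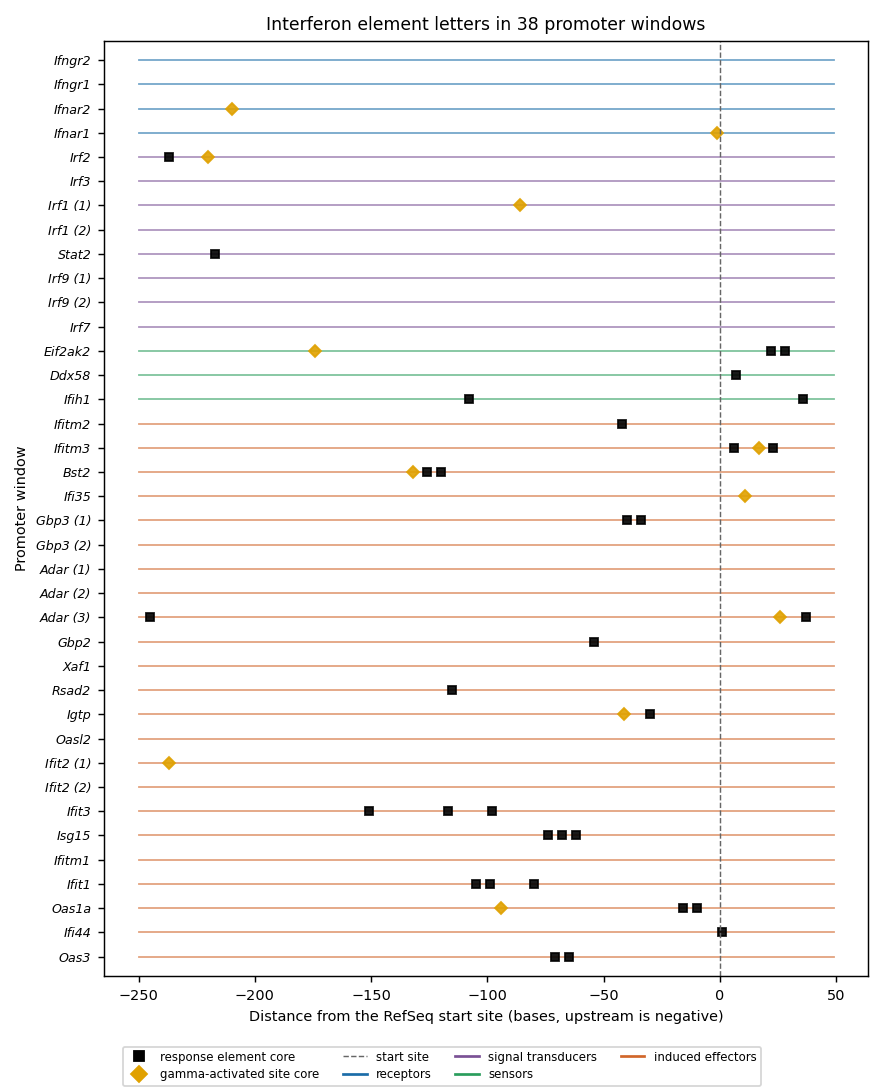
Matches of the response element core (black squares) and the gamma-activated site core (yellow diamonds) in 38 promoter windows of 32 genes, plotted at the centre of each match by distance from the start site in bases, with line colour for the gene's role. Receptor windows hold no black square, while 14 of 19 effectors with a window do, most of them upstream of the start site.

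A gene was counted as detected at 1 TPM or more in both animals. Of the 39 genes, 28 were detected (71.8%), against 49.9% of the 22028 annotated protein-coding genes. None of the 39 was at 0. The median of all 39 genes, detected or not, was 3.52 TPM. The 10985 detected protein-coding genes had a median of 8.84 TPM (quartiles 3.96 and 20.9 TPM). That set leaves out the coding genes below the detection level, so these medians do not rank the members among all coding genes. Summed TPM of the 39 genes was 319.7 in replicate 1 and 283.9 in replicate 2, or 0.0322% and 0.0286% of the TPM of all genes. A few genes carried a large share of it: Ifngr2, Ifitm2 and Ifitm3 together held 45.1% of the sum in replicate 1 and 45.7% in replicate 2. Median levels were 16.2 ± 2.18 TPM for the receptors, 5.94 ± 0.711 TPM for the signal transducers, 2.50 ± 0.435 TPM for the sensors and 1.69 ± 0.191 TPM for the effectors (SD, n = 2 animals). The order receptors, transducers, sensors, effectors held in each animal alone. The gaps from receptors to transducers and from transducers to sensors were larger than the spread between the animals. Sensors and effectors lay closer to each other, with medians of 2.81 and 1.55 TPM in replicate 1 and 2.195 and 1.82 TPM in replicate 2. Single genes crossed this order, since 3 effectors were above 20 TPM and Zbp1, a sensor, was near 0.

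**Figure D2:**
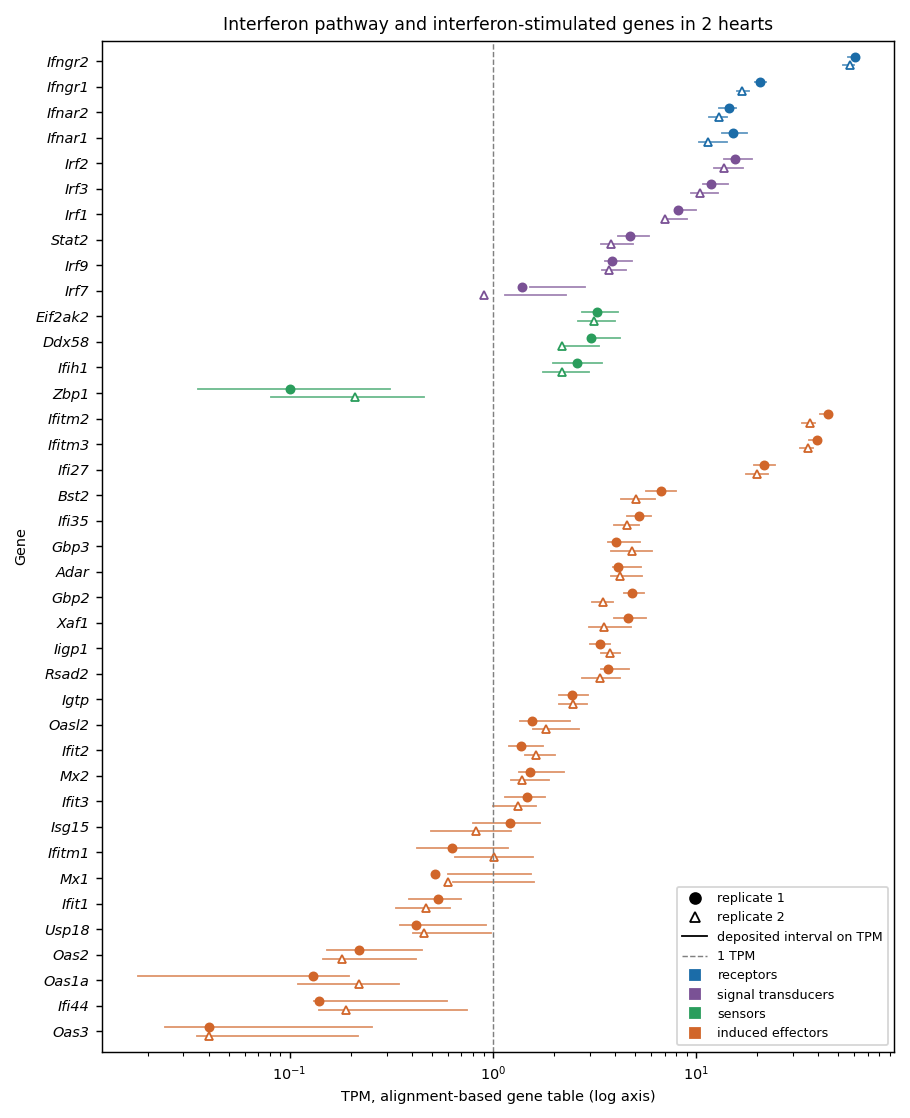
TPM of the 39 genes on a log axis, with 1 row per gene grouped by role, filled circles for replicate 1, open triangles for replicate 2, and lines for the deposited interval on TPM in each library. Receptors lie between 13.3 and 58.9 TPM on average, while effectors span from 0.04 to 40.5 TPM.

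Among the sensors, 3 of 4 were detected, all at low levels. Eif2ak2, the kinase PKR that halts translation on binding viral RNA, had 3.26 TPM in replicate 1 and 3.13 TPM in replicate 2. Ddx58, which encodes the RNA helicase RIG-I, had 3.03 and 2.20 TPM in the same order. Ifih1, which encodes the RNA helicase MDA5, had 2.59 TPM in replicate 1 and 2.19 TPM in replicate 2. These RNA sensors lay within a narrow range in both hearts, below the lower quartile of detected coding genes. Zbp1, a nucleic acid sensor known for its part in necroptosis, had 0.10 TPM from 3 counts in replicate 1 and 0.21 TPM from 5 counts in replicate 2. It was the only sensor below the detection level. Of 14 other genes of nucleic acid sensing, 9 were detected. The highest were Mavs, the mitochondrial adaptor of both RNA helicases, with 26.7 TPM in replicate 1 and 25.8 TPM in replicate 2, the ubiquitin ligase Trim25 with 8.75 and 7.33 TPM, and the kinase Tbk1 with 7.85 and 7.51 TPM. Mavs lay within the range of the receptors. Cgas, the sensor of cytosolic DNA, had 0.21 TPM in replicate 1 and 0.12 TPM in replicate 2.

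The interferons themselves were hardly detectable at this depth. Of 21 interferon genes (13 alpha genes, Ifnab, Ifnb1, Ifng, Ifnk, Ifne, Ifnz, Ifnl2 and Ifnl3), 20 had 0 counts in both animals, which allows up to 3 counts per library. The remaining gene, Ifnz, had 3.34 expected counts in replicate 1 and 0 in replicate 2, or 0.07 and 0 TPM. The same 20 genes were at 0 in the second deposited quantification.

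All 4 receptor chains were detected. Ifngr2, the signalling chain of the interferon gamma receptor, was the highest of the 39 genes, with 60.4 TPM in replicate 1 and 57.4 TPM in replicate 2. Ifngr1, the chain that binds interferon gamma, had 20.7 TPM in replicate 1 and 16.8 TPM in replicate 2. Ifngr2 was above Ifngr1 in both hearts. Ifnar2, the high-affinity chain of the type I interferon receptor, had 14.5 TPM in replicate 1 and 12.9 TPM in replicate 2. Ifnar1, its partner chain, had 15.3 and 11.4 TPM. The means of these type I chains, 13.7 ± 1.1 TPM for Ifnar2 and 13.3 ± 2.7 TPM for Ifnar1, differed by less than the spread between the animals (SD, n = 2). These are gene totals over all transcripts. Most of Ifnar2 was Ifnar2-203, a coding transcript of 248 codons, at 74.7% in replicate 1 and 77.4% in replicate 2 (alignment-based). Ifnar2-201, the longest with 513 codons, held 12.71% and 12.45%. Ifnar2, Ifnar1 and Ifngr2 are neighbours on chromosome 16, at chr16:91372783-91565623, in a stretch that also holds Il10rb, which serves the lambda interferon and interleukin-10 receptors. Within these 192.8 kb the members' mean levels differed 4.41-fold. Of 13 other receptor chains, kinases and regulators of the pathway, 11 were detected. The highest were Ptpn11, a phosphatase that also serves growth factor receptors, with 69.6 TPM in replicate 1 and 54.6 TPM in replicate 2, Il10rb with 37.5 and 42.2 TPM, and the kinase Jak1 with 33.4 and 31.9 TPM. Jak1 was above the median of the detected coding genes.

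Of the 6 signal transducers, 5 were detected. Irf2, a factor known mainly to hold interferon-responsive promoters down, was the highest, with 15.6 TPM in replicate 1 and 13.8 TPM in replicate 2. Irf3, the factor activated downstream of the sensors, had 11.9 and 10.5 TPM. Irf1, an activator induced by interferon gamma, had 8.13 TPM in replicate 1 and 7.04 TPM in replicate 2. These 3 factors were higher than the other 3 transducers in both hearts. Stat2 had 4.75 TPM in replicate 1 and 3.83 TPM in replicate 2. Irf9, the DNA-binding partner of Stat2, had 3.87 and 3.75 TPM. Irf7, the factor that amplifies interferon alpha production and is itself induced by interferon, was the lowest, with 1.39 TPM from 75 counts in replicate 1 and 0.90 TPM from 57 counts in replicate 2. The deposited interval for Irf7 ran from 1.53 to 2.85 TPM in replicate 1 and from 1.15 to 2.29 TPM in replicate 2, so its TPM lay below its own interval in both libraries. Its deposited posterior mean TPM, a second estimate from the same counts, was 2.16 in replicate 1 and 1.70 in replicate 2, and on that estimate Irf7 would count as detected. Irf7 has 13 annotated transcripts and few counts, so its level is less certain than those of the other transducers.

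Of the 25 effectors, 16 were detected, and 3 stood well above the others. Ifitm2, a membrane protein of the family that blocks fusion of viruses with cells, had 44.5 TPM in replicate 1 and 36.5 TPM in replicate 2. Ifitm3, its relative, had 39.4 and 35.8 TPM. Ifi27, a small hydrophobic protein strongly induced by type I interferon, had 21.7 TPM in replicate 1 and 20.1 TPM in replicate 2. These 3 genes held 68.3% of the effectors' summed TPM in replicate 1 and 67.0% in replicate 2. The other 22 effectors, from 0.04 to 5.87 TPM on average, were all below the lowest receptor, Ifnar1.

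A middle group of 13 effectors was detected below 10 TPM. It held genes of several kinds: Bst2 (tetherin, which holds budding virions at the cell surface) with 6.69 TPM in replicate 1 and 5.04 TPM in replicate 2, Ifi35 with 5.27 and 4.58 TPM, and the RNA editing enzyme Adar with 4.14 and 4.21 TPM. It also held the interferon-inducible GTPases Gbp3, Gbp2, Iigp1 and Igtp. Gbp3 had 4.04 TPM in replicate 1 and 4.84 TPM in replicate 2, Gbp2 had 4.84 and 3.47 TPM, Iigp1 had 3.36 and 3.78 TPM, and Igtp had 2.46 and 2.48 TPM. Rsad2, which encodes viperin, had 3.68 TPM in replicate 1 and 3.36 TPM in replicate 2. The rest of this group (Xaf1, Oasl2, Ifit2, Mx2 and Ifit3) ranged from 1.41 to 4.07 TPM on average. Mx2 is annotated as a polymorphic pseudogene.

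Several effectors widely used as readouts of interferon exposure were among the lowest. Isg15, the ubiquitin-like modifier, had 1.22 TPM from 27 counts in replicate 1 and 0.83 TPM from 19 counts in replicate 2. Ifit1, which binds foreign RNA ends, had 0.54 and 0.47 TPM, and Usp18, the protease that removes Isg15, had 0.42 and 0.46 TPM. Mx1, a GTPase that blocks influenza virus and is defective in many laboratory strains, had 0.52 TPM in replicate 1 and 0.60 TPM in replicate 2. The oligoadenylate synthetases, which activate RNase L, were lower still: Oas2 had 0.22 TPM in replicate 1 and 0.18 TPM in replicate 2, and Oas1a had 0.13 and 0.22 TPM. Oas3 had 0.04 TPM in both hearts, from 3 counts in replicate 1 and 6 counts in replicate 2, and was the lowest of the 39 genes. Ifi44 had 0.14 and 0.19 TPM. In all, 9 effectors stayed under 1 TPM in at least 1 animal, and 10 of the 39 genes had a mean count below 50, so that their levels rest on few reads. Mx1, like Irf7, had a TPM below its own deposited interval in both libraries, and Ddx58 did so in replicate 2. The posterior mean TPM of Mx1 was 1.04 in replicate 1 and 1.08 in replicate 2, above the detection level, and that of Ifi44 was 0.33 and 0.42.

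The Ifitm genes are neighbours with very different levels. Ifitm2, Ifitm1 and Ifitm3 lie at chr7:140954837-141010770 with no other protein-coding gene between them. Ifitm1 had 0.63 TPM in replicate 1 and 1.01 TPM in replicate 2, from 14 and 20 counts. Mean TPM within these 55.9 kb thus differed 49.3-fold between Ifitm2 and Ifitm1. Their promoter windows are shown whole to set the letters beside this difference, in the same notation as above.
Ifitm2, chr7:140955912-140956211, minus strand: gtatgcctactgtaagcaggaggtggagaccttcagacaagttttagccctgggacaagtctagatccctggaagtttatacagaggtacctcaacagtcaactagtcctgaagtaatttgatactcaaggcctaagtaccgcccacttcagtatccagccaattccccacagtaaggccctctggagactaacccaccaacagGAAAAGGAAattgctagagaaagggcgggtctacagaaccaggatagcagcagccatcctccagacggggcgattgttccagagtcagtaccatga
Ifitm1, chr7:140967826-140968125, plus strand: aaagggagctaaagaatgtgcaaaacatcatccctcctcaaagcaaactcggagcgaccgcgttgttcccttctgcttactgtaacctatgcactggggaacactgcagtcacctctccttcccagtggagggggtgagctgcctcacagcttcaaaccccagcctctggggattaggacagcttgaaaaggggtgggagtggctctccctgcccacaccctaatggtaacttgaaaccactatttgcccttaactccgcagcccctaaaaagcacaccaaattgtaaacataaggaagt
Ifitm3, chr7:141010695-141010994, minus strand: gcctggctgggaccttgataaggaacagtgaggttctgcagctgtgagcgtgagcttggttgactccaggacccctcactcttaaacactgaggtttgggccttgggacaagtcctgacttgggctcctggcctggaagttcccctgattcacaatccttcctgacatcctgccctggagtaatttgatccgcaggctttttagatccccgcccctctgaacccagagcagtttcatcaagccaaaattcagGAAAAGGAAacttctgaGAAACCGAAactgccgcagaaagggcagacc
The response element core was found once in Ifitm2, 46 bases upstream of the start site, not in the Ifitm1 window, and at 2 places in Ifitm3, both just downstream of the start site. The Ifitm1 window lies inside the annotated gene, which begins at chr7:140967221, so the stretch before that end was not searched. The 3 genes are too few to relate the letters to the levels. Over all 32 genes with a window, the median level was 3.20 TPM for the 19 with the letters (range 0.04 to 40.5 TPM) and 4.93 TPM for the 13 without (range 0.82 to 58.9 TPM), so that genes at both ends of the range held them. In the other 5 groups of neighbouring members, mean levels differed between 1.07-fold (Gbp3 and Gbp2 on chromosome 3) and 5-fold (Oas2, Oas3 and Oas1a on chromosome 5). The 5-fold difference rests on the few counts of Oas3, whose posterior mean TPM was 0.12 in both hearts, against 0.29 in replicate 1 and 0.27 in replicate 2 for Oas2. Reads shared between close relatives can be split wrongly. The deposited standard deviation of the count, which measures this uncertainty, was 0 in both libraries for 27 of the 39 genes. Among the other 12, the largest in replicate 1 were 3.10 counts for Ifit3, 2.93 for Igtp, 2.40 for Ifnar2 and 1.88 for Ifitm2. Igtp also overlaps the annotated span of Irgm2, so its counts are less certain.

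Beyond the list, 23 of 40 other interferon-induced genes were detected. The highest were B2m, the light chain of class I antigen presentation, with 51.0 TPM in replicate 1 and 45.5 TPM in replicate 2, the immunoproteasome subunit Psmb10 with 26.3 and 25.8 TPM, and the secreted glycoprotein Lgals3bp with 7.39 and 8.18 TPM. Cxcl10, a chemokine induced by interferon gamma, had 0.13 TPM in replicate 1 and 0.14 TPM in replicate 2. B2m was above every effector of the list, and Cxcl10 was below all of them but Oas3.

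The hearts were then compared gene by gene. With 1 library per animal, the test compares the 2 libraries and its error is counting error only. Counts were scaled by TMM, a factor that centres most genes on no difference. A two-sided exact binomial test was run on every gene that averaged 10 counts or more, with Benjamini-Hochberg adjustment over all 15839 of them. This left 37 of the 39 genes and dropped Zbp1 and Oas3. At an adjusted p under 0.05, 4 genes were higher in replicate 1 (Gbp2, Rsad2, Ifngr1 and Ifitm2), against 10.3% of all genes tested. In the other direction 1 gene, Ifngr2, was higher in replicate 2, again against 10.3% of all genes. The members' shares were thus near the background in the first direction and below it in the second. Scaled by spike-in totals, which moved the ratios of all genes by 0.11 on the log2 scale, 8 members were higher in replicate 1 and 0 in replicate 2, against 23.3% and 3.21% of all genes. A stricter rule that adds a ratio of at least 2 and deposited TPM intervals that do not overlap called 0 of the 37 members, against 0.802% of all genes. At an unadjusted p under 0.05 there were 10 of the 37 by this exact binomial test. The share of all genes at that threshold was not computed, and 20.6% of all genes passed even the adjusted threshold, in either direction. Without the share at the same threshold, the 10 cannot be read as an excess or as the lack of one. Models that need a spread between libraries, such as edgeR's quasi-likelihood test, have no residual degree of freedom here.

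Gbp2, a guanylate-binding GTPase, had the largest difference among the called genes, with 395 counts in replicate 1 and 293 in replicate 2. Its ratio of replicate 1 to replicate 2 was 1.31 (95% exact interval 1.12 to 1.52, adjusted p = 0.00417). Rsad2 had 458 counts in replicate 1 and 356 in replicate 2, a ratio of 1.25 (1.08 to 1.43, adjusted p = 0.0132 in the same exact test). Ifngr1 had 1374 and 1160 counts, a ratio of 1.15 (1.06 to 1.24, adjusted p = 0.00465). Each of these 3 was higher in replicate 1 in counts and in TPM. TPM comes from the same counts, and over all detected genes it was shifted toward replicate 1, at a median log2 ratio of 0.08. The TPM sums given for the 2 hearts carry this shift too. Ifitm2 had 835 counts in replicate 1 and 708 in replicate 2, a ratio of 1.14 (1.03 to 1.26, adjusted p = 0.0463), and was no longer called without the filter on low counts (adjusted p = 0.0697). Ifngr2 had 4353 counts in replicate 1 and 4588 in replicate 2, a ratio of 0.919 (0.881 to 0.958, adjusted p = 0.000648), although its TPM was higher in replicate 1. Scaled by spike-in totals, Ifngr2 was no longer called (adjusted p = 0.804). The deposited TPM intervals of the 2 libraries did not overlap for Gbp2, Ifngr1 and Ifitm2, and overlapped for the other 36 genes.

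**Figure D3:**
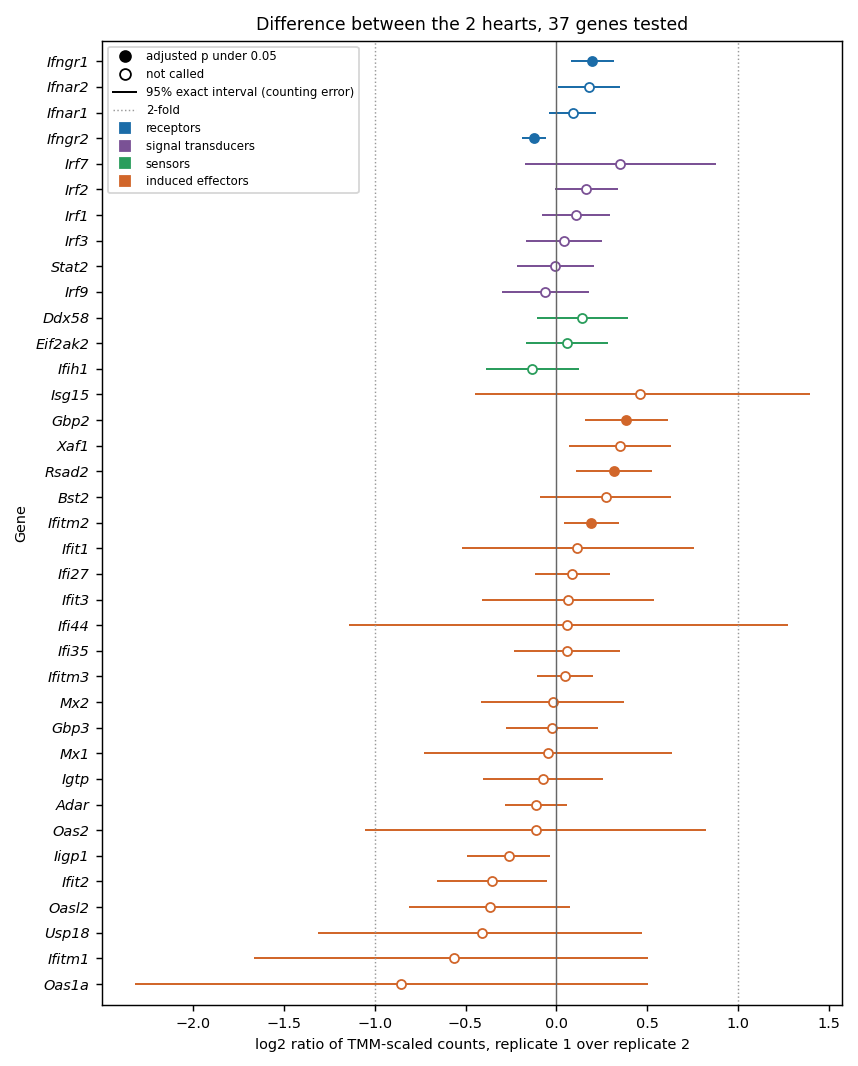
Log2 ratio of TMM-scaled counts, replicate 1 over replicate 2, for the 37 genes tested, with 95% exact intervals for counting error, filled points at an adjusted p under 0.05 and dotted lines at a ratio of 2. The 5 filled points lie inside the dotted lines, and the widest intervals belong to genes with few counts such as Oas1a, Isg15 and Ifi44.

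Over the 37 genes, 21 ratios were above 1 and 16 below, with a median log2 ratio of 0.06 against -0.01 over all genes tested. The median size of the log2 ratio was 0.12, against 0.14 over all genes tested. The effectors were split evenly, with 12 ratios above 1 and 12 below. The extremes were Oas1a at -0.85, with 8 counts in replicate 1 and 13.6 in replicate 2, and Isg15 at 0.46, and neither passed the test. Markers of several cell types differed between the hearts as well, against 10.3% of all genes called in each direction. With counting error only, genes with many counts are called at small ratios. The 8 macrophage genes summed to 88.6 TPM in replicate 1 and 65.0 TPM in replicate 2, with 8 of 8 ratios above 1 and 5 of them called. The 8 endothelial genes summed to 398.0 TPM in replicate 1 and 307.6 TPM in replicate 2, with 6 called higher in replicate 1. Higher in replicate 1 were also 3 of 6 fibroblast genes and 4 of 6 smooth muscle and pericyte genes. The 6 cardiomyocyte genes were called higher in replicate 2, 6 of 6, at a median log2 ratio of -0.13. The 5 erythroid genes were mixed, with 2 called in each direction. None of the T and NK cell, B cell, neutrophil and plasmacytoid dendritic cell markers was detected. Their summed levels were 0.76 and 0.74 TPM for T and NK cells, 1.34 and 2.19 TPM for B cells, 1.34 and 1.05 TPM for neutrophils, and 0.75 and 0.31 TPM for plasmacytoid dendritic cells (replicates 1 and 2). The part of these cell markers in the differences of Gbp2, Rsad2, Ifngr1, Ifitm2 and Ifngr2 was not tested. Of the other pathway genes, set against 20.6% of all genes called in either direction, 2 of 13 receptors and kinases were called (Ptpn11 higher in replicate 1 and Il10rb higher in replicate 2), 1 of 14 sensing genes (Traf6, higher in replicate 1) and 9 of the 36 tested among 40 induced genes (7 in favour of replicate 1 and 2 of replicate 2). These counts are small, and that of the induced genes is near the background share. The stricter rule called 0 of these pathway genes.

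Each library was deposited in 2 quantifications: 1 from transcriptome alignments, used so far, and 1 computed from the reads directly. Of the 28 detected genes, 26 were lower in the alignment-based values. The median log2 ratio, alignment-based over read-based, was -0.25, close to the -0.23 of the 10985 detected coding genes, of which 88.3% were lower. Adar differed most, at -0.81: it had 4.14 and 4.21 TPM in the alignment-based tables, against 6.38 and 8.62 TPM in the read-based tables (replicates 1 and 2). Irf3 at -0.53 and Irf1 at -0.47 followed. The exceptions were Ifnar1 at 0.27 and Ifitm2 at 0.08, which were higher in the alignment-based values. Ifih1, at -0.00, was the closest to equal. These ratios compare 2 estimates from the same libraries, so they carry no replicate error.

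**Figure D4:**
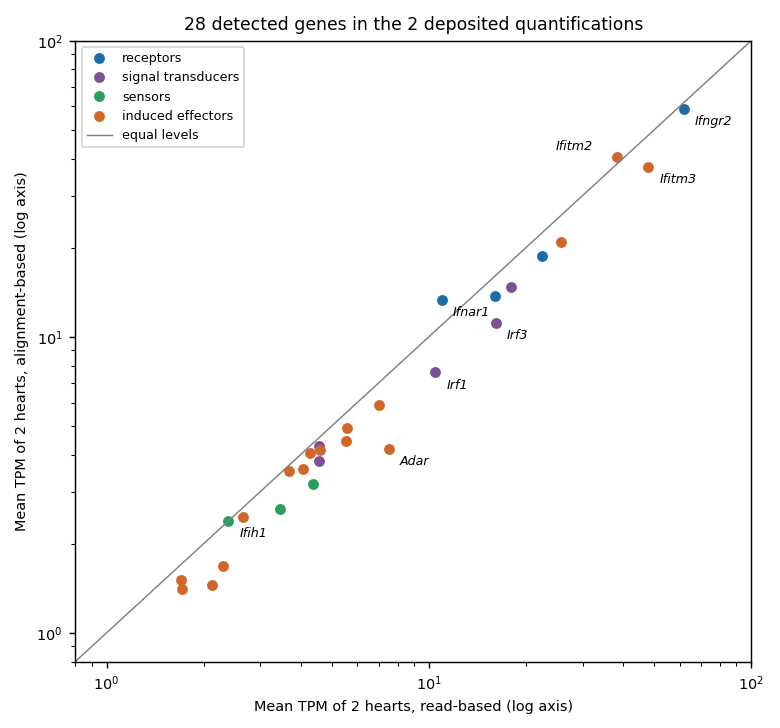
Mean TPM of the 2 hearts for the 28 detected genes, alignment-based on the vertical axis and read-based on the horizontal axis, both log, coloured by role, with the line of equal levels. Most points lie below the line, Adar farthest at a log2 ratio of -0.81, and Ifnar1 lies above it.

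At the transcript level, 33 of the 39 genes have several annotated transcripts. The transcript with the highest share of its gene was the same in both hearts for 25 of the 33 in the alignment-based tables and for 26 in the read-based tables. It was the same in both hearts and both tables for 19. A protein-coding transcript led in both hearts and both tables for 26 of the 33. Ifit2-201 and Gbp2-201 held 100% of their genes throughout. Irf3 was led by a retained-intron transcript, Irf3-207, in the alignment-based tables (25.5% in replicate 1 and 28.8% in replicate 2), and by the coding Irf3-202 in the read-based tables (25.0% and 26.5%). Ifi27 was led by the retained-intron transcript Ifi27-209 at 41.1% in replicate 1 and 37.7% in replicate 2 in the alignment-based tables. In Ifngr2 the coding Ifngr2-201 held 53.6% in replicate 1 and 58.4% in replicate 2, and the remainder, 46.5% and 41.6%, went to Ifngr2-202, which is annotated as a target of nonsense-mediated decay. The TPM of these 3 genes is thus not all from transcripts annotated as coding, and the same held for other members. Oasl2 was led by Oasl2-205, annotated as a target of nonsense-mediated decay, at 44.0% in replicate 1 and 45.3% in replicate 2 (alignment-based). The coding Oasl2-207 led it in the read-based values. Coding transcripts held 49.8% and 60.8% of Stat2 and 45.72% and 72.65% of Ddx58 (alignment-based).

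Adar shows how far transcript shares depended on the quantification. Its longest coding transcript, Adar-203 with 1178 codons, held 29.6% of the gene in replicate 1 and 22.5% in replicate 2 in the alignment-based tables, and at most 0.155% in the read-based tables. Another long coding transcript, Adar-201 with 1152 codons, held 20.57% and 25.95% in the alignment-based tables, against 7.07% and 11.67% in the read-based tables. Adar-206, a transcript with no annotated reading frame, held 1.56% and 14.9% in the alignment-based tables, against 25.1% and 41.1% in the read-based tables. The shorter coding transcript Adar-202, with 930 codons, held between 27.4% and 40.8% in all 4 tables. The leading transcript of Adar differed between the hearts in both quantifications, so the balance of its long and short protein forms was not settled by these tables. In Mx1, the transcript with the longest reading frame, Mx1-201 with 627 codons, was listed at 0 in all 4 tables. Mx1-205, annotated as a target of nonsense-mediated decay, led the read-based tables with 86.9% in replicate 1 and 65.1% in replicate 2, from 42.9 and 50.1 estimated counts for the whole gene.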

How the data were processed

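Total RNA-seq libraries of 2 hearts were analysed as 1 group. Expected counts per gene and transcript, from transcriptome alignments, and estimated counts per transcript, from reads directly, were deposited without normalization, per the file headers. The authors computed TPM across every entry, spike-ins included. The score columns, deposited per gene, hold lower and upper limits of a credible range for TPM (level not stated) and the posterior standard deviation of the count. The percent column, deposited per transcript, gives its share of its gene. Both quantifications used mm10 with GENCODE M21, per the deposited listings; which tools made them is not given in the sources used here, and the column names are those RSEM and kallisto write. The labels give the libraries 1 donor label but separate animal numbers, and they were taken as 2 animals.

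Read-based transcripts were summed to genes. Detection was set at 1 TPM in both animals. Expected counts, rounded to whole numbers, were scaled with TMM factors (edgeR 4.0.16 in R 4.3.3). Genes averaging 10 counts or more entered an exact two-sided binomial test with Benjamini-Hochberg adjustment and a threshold of 0.05. The stricter rule added a ratio of at least 2 and separate TPM intervals. The 95% intervals of ratios are Clopper-Pearson bounds and hold counting error alone. Log2 ratios of the quantifications used a pseudocount of 0.1 TPM. Members and lists were chosen with earlier results of these data known. Values are given for the 3 highest and the lowest genes of each role, called genes, those whose quantifications differ most, and the 3 highest of each pathway list. The remaining members are named by role, with their own values or, for Xaf1, Oasl2, Ifit2, Mx2 and Ifit3, a joint range. Further pathway genes such as Cgas and Cxcl10 were added after their values were seen. Neighbouring members are those within 200 kb. Of the pathway symbols, Ifit2b was not found. Protein sequences and signal by allele were not used here. Alternatives included size factors of DESeq2 1.42.0. Python 3.11.15 ran the remaining steps with pandas 2.3.3, scipy 1.17.1, matplotlib 3.10.9 and numpy 2.4.6.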

Additional observations from a re-analysis of the deposited data

How the results depend on the processing

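The number of detected members ranged from 24 to 34 over the thresholds and level estimates tried, and the share of all protein-coding genes from 44.2% to 55.4%. The order of the roles was the same in each animal alone and under every level estimate, all from the same 2 libraries. Rescaling to protein-coding nuclear genes multiplies all levels of a library by 1 factor, so it could not change the order within a library. Read-based TPM gave medians of 19.3 for receptors, 7.52 for transducers and 2.29 for effectors, and posterior mean TPM gave 2.00 for effectors. TPM rescaled to protein-coding nuclear genes gave 41.6 for receptors, 15.2 for transducers, 6.41 for sensors and 4.33 for effectors, by construction of the smaller total. TPM of single members moved by more than their own spread for 39 of 39 under this rescaling, for 23 under read-based TPM and for 13 under posterior means. With ERCC spike-in totals, 8 members were called higher in replicate 1 and 0 in replicate 2, against 23.3% and 3.21% of all genes. The members' median log2 ratio was then 0.17, and this scaling moved the ratios of all genes by 0.11. Ifngr2 was then not called (log2 ratio -0.01). With no filter on low counts, which adds genes to the adjustment, Ifitm2 was not called. Xaf1 was gained, higher in replicate 1, with DESeq2 size factors, total counts, spike-in totals and a mean count of at least 50, Ifnar2 with total counts and spike-in totals, and Irf2 and Ifnar1 with spike-in totals. Members called higher in replicate 1 ranged from 3 to 8 over these settings. The median log2 ratio of the quantifications was -0.21 with a pseudocount of 1, and -0.21 and -0.20 with a single animal each. Of the results recomputed, the log2 ratio of the quantifications for Ifih1, near 0 in the mean, changed sign between single animals, at -0.04 without replicate 1 and 0.04 without replicate 2. No paired analysis was possible because there is 1 group. With 1 library per animal, counting error is the only error the tests hold, and depth limits the 10 genes with a mean count below 50.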

Other observations

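Among the other interferon-induced genes, a few had larger differences between the hearts than any called member, and they were chosen here after their values were seen. Ifi207 and Ifi204 encode nuclear proteins of the HIN-200 family, known from myeloid cells, and lie close to each other on chromosome 1. Ifi207 had 1.33 TPM in replicate 1 and 0.64 TPM in replicate 2, from 150 and 74.0 counts, so that the ratio was 1.96 (95% exact interval 1.48 to 2.63, adjusted p = 1.8e-05 in the two-sided exact binomial test). Ifi204 had 0.84 TPM in replicate 1 and 0.46 TPM in replicate 2, and its ratio was 1.77 (1.14 to 2.77, adjusted p = 0.0398 in the same exact test). The 8 macrophage markers summed to 88.6 TPM in replicate 1 and 65.0 TPM in replicate 2. All 8 had ratios above 1, with a median log2 ratio of 0.37, and 5 were called. Among them, Cd163 had 7.69 and 3.64 TPM in the same order. The part of these markers in the differences of Ifi207 and Ifi204 was not tested. Herc6, a ubiquitin ligase-like gene that conjugates Isg15 in the mouse, had 96.6 counts in replicate 1 and 46.0 in replicate 2, a ratio of 2.04 (1.42 to 2.97, adjusted p = 0.000531 in the exact test), with deposited TPM intervals that overlapped. Its TPM differed less, at 0.84 and 0.65 in the same order. Ifi47, an interferon-inducible GTPase, was higher in replicate 2, with 26 counts in replicate 1 and 53 in replicate 2, a ratio of 0.475 (0.285 to 0.773, adjusted p = 0.0105 in the exact test). Each of these rests on 1 library per animal.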
